A study of Mus musculus with 21 samples.

Results

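Pigment genes of melanocytes were followed in the skin of albino mice with a sclerodermatous chronic graft-versus-host disease. The 8 genes were taken by symbol from the table of gene counts, out of 64050 symbols: Mitf, Tyr, Tyrp1, Dct, Pmel, Mlana, Slc45a2 and Oca2. All 8 were found, and 7 passed the filter on low counts and were tested, while Oca2 did not pass and is described by its counts. The labelled tissue is whole skin, and melanocytes are a small share of it, so that fewer melanocytes and less RNA per melanocyte cannot be told apart here.

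All recipients were BALB/c (H-2d) mice, 8 weeks old, that had total body irradiation with 700 cGy and then a marrow transplant. Allogeneic recipients had marrow of B10.D2 (H-2d) donors and syngeneic recipients had marrow of BALB/c (H-2d) donors. The groups were allogeneic mice given mCAN10, an antibody to IL1RAP, the accessory chain that several receptors of the IL-1 family share (mCAN10, 4 libraries), allogeneic mice given the isotype antibody mIgG2a LALA-PG (Allo, 4 libraries), and syngeneic mice given the same isotype antibody (Syn, 4 libraries). A further pair of groups were allogeneic mice given nintedanib, a kinase inhibitor that blocks VEGF, FGF and PDGF receptors (Nin, 5 libraries), and allogeneic mice given ddH2O (Allo_H, 4 libraries). Treatment began on day 21, and RNA was taken in week 7 from an area of skin 3 mm in diameter. Antibodies were injected intraperitoneally, first at 20 mg/kg and then at 10 mg/kg. Nintedanib is given as 50 mg/kg by mouth daily in the protocol, whereas the design text has every allogeneic group injected intraperitoneally 2 times a week for 4 weeks. The route and frequency of nintedanib are thus uncertain. The labels do not say that each library is a separate mouse, so p-values measure the spread between these samples, and the sources used here do not give the sex of the mice.

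Melanocytes make melanin in melanosomes, organelles related to lysosomes. Mitf is the transcription factor that defines the lineage and is known to bind the promoters of pigment genes. Tyr codes for tyrosinase, the rate-limiting enzyme of melanin synthesis, Tyrp1 and Dct code for the related enzymes that act after it, Pmel forms the fibrils on which melanin is laid down, Mlana is a melanosome membrane protein, and Slc45a2 and Oca2 are transporters that set the conditions inside the melanosome. BALB/c mice carry a missense allele of Tyr whose enzyme is inactive, and also the brown allele of Tyrp1: they have melanocytes but no pigment. B10.D2 donors belong to a pigmented strain. The alleles were not read from these data, which count reads per gene.

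The promoters of the 3 related enzymes are shown because the M-box, a stretch of letters that Mitf is known to bind, can be seen in each of them. The sequences are those of RefSeq in build GRCm38.p6, an older build than that of the counts, and run 5′ to 3′ on the gene's own strand from 250 bases before to 50 bases after the start site. Promoters were given for 5 of the 8 genes. Capitals mark the letters of the motif: the 9 letters TCATGTGCT in all 3, and in Dct also CACATGA, the reverse complement of the first 7 letters. Tyr lies at chr7:87493463-87493762 on the minus strand, Tyrp1 at chr4:80833963-80834262 on the plus strand and Dct at chr14:118052197-118052496 on the minus strand.
Tyr: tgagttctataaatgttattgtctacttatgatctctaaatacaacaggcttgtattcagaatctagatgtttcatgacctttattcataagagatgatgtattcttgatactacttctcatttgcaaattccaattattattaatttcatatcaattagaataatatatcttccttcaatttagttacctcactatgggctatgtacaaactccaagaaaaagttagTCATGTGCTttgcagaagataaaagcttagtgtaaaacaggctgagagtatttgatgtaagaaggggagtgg
Tyrp1: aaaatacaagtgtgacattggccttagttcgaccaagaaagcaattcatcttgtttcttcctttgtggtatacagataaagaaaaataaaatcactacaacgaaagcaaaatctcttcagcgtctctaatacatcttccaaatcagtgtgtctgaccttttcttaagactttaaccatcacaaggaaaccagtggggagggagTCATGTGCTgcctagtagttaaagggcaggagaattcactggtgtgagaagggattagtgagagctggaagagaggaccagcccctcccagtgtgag
Dct: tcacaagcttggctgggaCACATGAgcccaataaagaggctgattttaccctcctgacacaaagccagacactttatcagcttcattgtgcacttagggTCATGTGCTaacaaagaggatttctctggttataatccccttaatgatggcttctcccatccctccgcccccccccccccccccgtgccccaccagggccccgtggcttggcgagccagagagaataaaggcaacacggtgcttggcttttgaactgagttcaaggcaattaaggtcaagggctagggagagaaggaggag
The 9 letters began 22 bases before the start site in Tyr, 47 bases before it in Tyrp1 and 151 bases before it in Dct. They were found on either strand in 134 of 32851 promoters of this length (0.408%), and in 3 of the 5 pigment genes with a promoter. The shorter TCATGTG, which lies within them, was in 3.77% of promoters and CATGTG, which lies within both, in 14.15%. The promoters of Mitf held none of these, and that of Oca2 held CATGTG alone. These are matches of letters, and binding was not measured.

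The libraries held 17130264 to 32899212 counts. Values are counts scaled to library size with TMM factors and given as CPM, for which 3 counts correspond to 0.0949 to 0.188 CPM. The mCAN10, Allo and Syn libraries and the Nin and Allo_H libraries were counted in separate runs with different sets of gene symbols, and groups are compared within a run only. Some contents of the skin pieces differed between libraries. Summed over 23 genes of the growing hair follicle, Nin replicates 1 and 3 had 67970 and 23900 CPM, against 40.1 to 63.9 CPM in the other Nin libraries and 43.0 to 442 CPM in Allo_H libraries. The same sum was 693 CPM in Allo replicate 1 and 28.5 to 56.2 CPM in the other 11 libraries of its run. Skeletal muscle genes summed to 10.5 CPM in Allo replicate 1 and to 3785 to 47965 CPM in the other libraries. Y-linked genes had 0 CPM in Allo libraries and 2.73 to 6.61 CPM in Syn libraries, so they part these groups, as does the donor strain. They also had 15.2 CPM in mCAN10 replicate 2, 11.7 CPM in Nin replicate 2 and 27.9 CPM in Nin replicate 4, against 0 CPM in the other mCAN10 and Nin libraries and in all Allo_H libraries. Xist, the other sex-linked RNA summed here, was found in every library, from 161 CPM in Nin replicate 5 to 463 CPM in Nin replicate 1.

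Reads of all 8 genes were found in albino skin, at very unequal levels, with Oca2 at 0 in the Syn libraries. Per kilobase of exon, in GENCODE gene models of the older build, Pmel had the highest mean level of the 8 in every group, for example 8.08 CPM per kb in mCAN10, 8.94 in Allo and 9.85 in Syn skin. Mitf, Tyrp1 and Dct took the next 3 places in every group, at 0.950 to 5.42 CPM per kb, and Mlana the fifth, at 0.576 to 3.16 CPM per kb. Slc45a2 and Tyr followed, with means from 0.0270 to 0.748 CPM per kb, and Oca2 was the lowest, at 0 to 0.205 CPM per kb. Melanosome structure genes and the enzymes Tyrp1 and Dct were thus well above tyrosinase itself in every group. Exons of Pmel share 139 bases with Cdk2 and Dgka, and reads there cannot be told apart without strand. No other gene of the 8 overlapped another gene's exons.

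**Figure D1:**
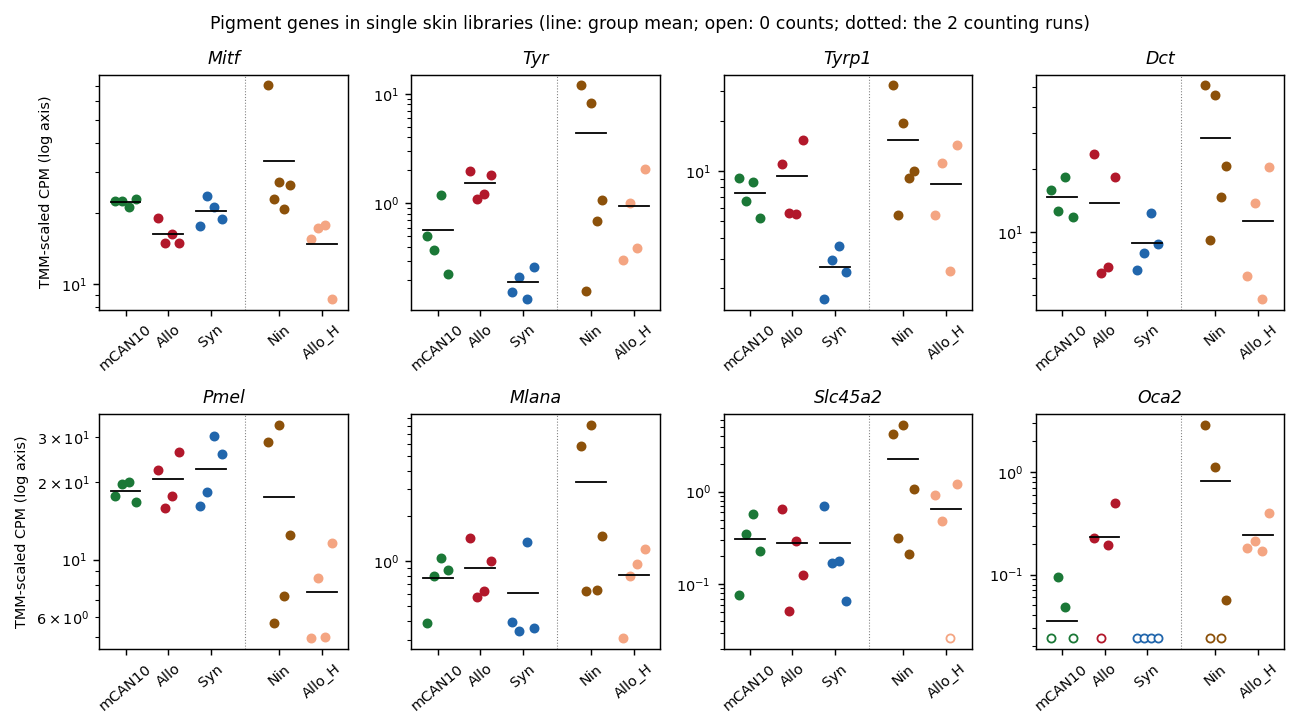
Level of each pigment gene in every library, as TMM-scaled CPM on log axes that differ between genes; a point is a library, a line the mean of its group, an open point 0 counts, and the dotted line parts the counting runs. Tyr and Tyrp1 lay higher in all 4 Allo libraries than in all 4 Syn libraries, and the highest Nin points in every panel are replicates 1 and 3.

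Allogeneic skin differed from syngeneic skin, both under the isotype antibody, in tyrosinase and the tyrosinase-related protein Tyrp1, and the other pigment genes did not pass the test. This comparison asks how the pigment genes stand in the disease. Tyr was 7.65-fold higher and Tyrp1 3.48-fold higher in allogeneic skin. Dct, the third enzyme of the same family, had a 1.55-fold difference that did not pass the test.

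Tyr had 0.502, 0.380, 1.20 and 0.229 CPM in mCAN10 libraries, 1.97, 1.09, 1.21 and 1.81 CPM in Allo libraries, and 0.156, 0.214, 0.134 and 0.262 CPM in Syn libraries. The lowest Allo library thus lay above the highest Syn library, and the mCAN10 libraries reached into both ranges. The Syn values rest on 3 to 8 reads a library and the Allo values on 21 to 43. Allo exceeded Syn by a log2 fold change of 2.94 ± 1.00 (SE) with edgeR's adjusted p = 0.0415.

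Tyrp1 is thought to act late in the synthesis of the brown-black melanin. It had 9.14, 6.61, 8.56 and 5.22 CPM in mCAN10 libraries, 11.0, 5.62, 5.56 and 15.3 CPM in Allo libraries and 1.72, 2.96, 3.58 and 2.49 CPM in Syn libraries. Syn libraries were the lowest 4 of the 12, and neither allogeneic group overlapped them. For Allo over Syn the log2 fold change was 1.80 ± 0.54 (edgeR's adjusted p = 0.0228). The members called were 2 of 7, both higher, against 22.6% of the 20462 genes tested, 13.8% higher and 8.8% lower. These were also the 2 of 7 whose groups did not overlap, against 16.8% of all genes that did not overlap and were higher. The median log2 fold change was 0.58 over the 7 genes and 0 over all genes tested.

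Both calls were sensitive to the libraries used. For Tyr the call was lost when any single library other than Allo replicate 3 was left out (edgeR's adjusted p = 0.0618 to 0.0957, log2 fold change 2.78 to 3.13), and for Tyrp1 without Allo replicate 4, Syn replicate 1 or Syn replicate 4 (adjusted p = 0.0813, 0.0695 and 0.0575). With skeletal muscle content as a covariate the log2 fold changes were 2.33 (edgeR's adjusted p = 0.134) for Tyr and 1.40 (adjusted p = 0.0912) for Tyrp1, where muscle genes summed to 10.5 to 47965 CPM in Allo and 32140 to 47815 CPM in Syn libraries.

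Dct had 15.9, 12.7, 18.5 and 11.9 CPM in mCAN10 libraries, 23.7, 6.34, 6.77 and 18.4 CPM in Allo libraries, and 6.56, 7.93, 12.4 and 8.73 CPM in Syn libraries. Allo replicates 1 and 4 were above every Syn library, and replicates 2 and 3 lay at or just below the bottom of the Syn range. These replicates 1 and 4 were also the highest Allo libraries for Tyr, Tyrp1, Pmel and Mlana. Allo over Syn was 0.63 ± 0.54 on the log2 scale (edgeR's adjusted p = 0.438).

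Pmel, the fibril protein, had 17.7, 19.6, 20.1 and 16.7 CPM in mCAN10 libraries, 22.2, 15.9, 17.7 and 26.2 CPM in Allo libraries and 16.2, 18.3, 30.2 and 25.6 CPM in Syn libraries. The 3 groups overlapped throughout. Allo over Syn was -0.14 ± 0.44 on the log2 scale (edgeR's adjusted p = 0.883).

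Mlana, whose protein sits in the same early melanosomes, had 0.386, 0.791, 1.05 and 0.870 CPM in mCAN10 libraries, 1.42, 0.572, 0.629 and 1.00 CPM in Allo libraries and 0.390, 0.343, 1.34 and 0.360 CPM in Syn libraries. Syn replicate 3 stood with the Allo libraries and the other Syn libraries lay below them. Its log2 fold change of Allo over Syn was 0.58 ± 0.74 (edgeR's adjusted p = 0.627).

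Mitf ranged from 21.3 to 23.03 CPM in mCAN10 libraries, from 14.9 to 19.2 CPM in Allo libraries and from 17.7 to 23.7 CPM in Syn libraries. Allo libraries lay on the low side and the mCAN10 libraries were above all of them. Allo over Syn was -0.32 ± 0.30 on the log2 scale (edgeR's adjusted p = 0.491). Mast cells and macrophages are also known to use Mitf. Their marker sums were 192 to 371 CPM (mast cell) and 1420 to 2940 CPM (macrophage) in mCAN10 libraries, 29.6 to 258 and 1595 to 4528 CPM in Allo libraries, and 136 to 218 and 654 to 1319 CPM in Syn libraries. Their part in the Mitf values was not tested.

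The transporter genes were near the limit of the depth. Slc45a2 had 2 to 12 reads in mCAN10 libraries, 1 to 14 in Allo libraries and 2 to 18 in Syn libraries, and the log2 fold change of Allo over Syn was 0.03 ± 1.08 (edgeR's adjusted p = 1). Oca2 had 0, 3, 1 and 0 reads in mCAN10 libraries, 5, 0, 4 and 8 in Allo libraries and 0 in all 4 Syn libraries. Reads of Oca2 were thus seen in 3 of 4 Allo libraries and in no Syn library. Against 3 counts over the whole Syn group, taken as a ceiling for its 0 reads, the observed Allo level was 7.43-fold higher. The counting error of the Allo reads and the spread between libraries are not covered by this ratio. Without the filter on low counts edgeR's adjusted p for Oca2 was 0.116, and DESeq2 gave an adjusted p of 0.0332.

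**Figure D2:**
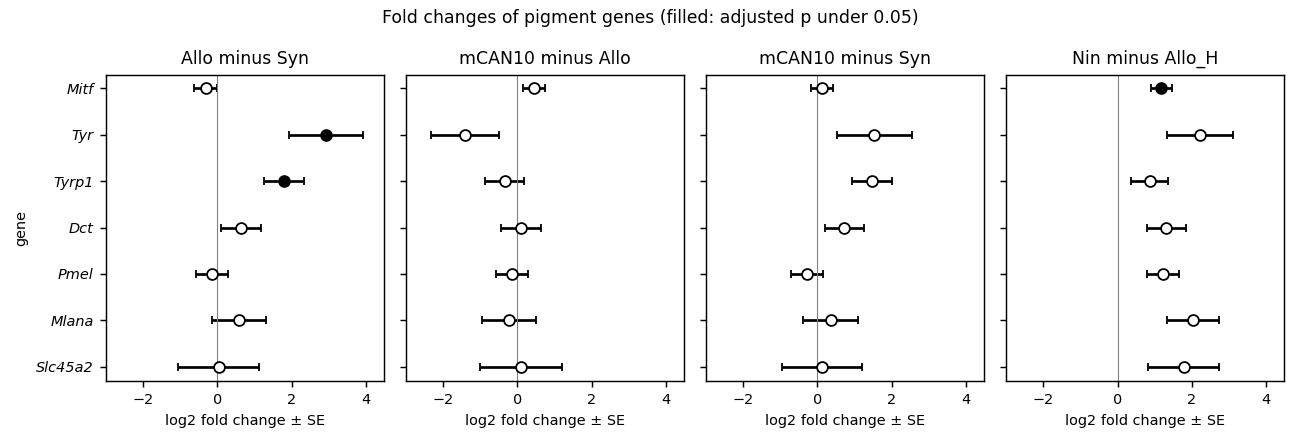
Log2 fold changes of the 7 tested pigment genes with their SE from the edgeR fit, for each comparison; a filled point has an adjusted p under 0.05. The filled points are Tyr and Tyrp1 for Allo over Syn and Mitf for Nin over Allo_H.

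The antibody against IL1RAP was compared with the isotype antibody in allogeneic mice, and no pigment gene passed the test. Tyr was lower under mCAN10 with a log2 fold change of -1.41 ± 0.91 (edgeR's adjusted p = 0.379), and mCAN10 replicate 3, at 1.20 CPM, was the only one of the 4 libraries within the Allo range. Tyrp1, Dct, Pmel, Mlana and Slc45a2 had log2 fold changes from -0.34 to 0.09. Mitf was above every Allo library in all 4 mCAN10 libraries, with a mean of 22.3 ± 0.743 CPM in mCAN10 and 16.3 ± 2.02 CPM in Allo skin (SD, n = 4 each) and a log2 fold change of 0.45 ± 0.30 (edgeR's adjusted p = 0.394). It was the 1 of the 7 genes whose groups did not overlap, against 12.2% of all genes that did not overlap and were higher. The members called were 0 of 7, against 10.8% of all genes, 5.58% higher and 5.19% lower. At an unadjusted p under 0.05 none of the 7 passed, against 24.5% of all genes, and DESeq2 called none of them. With the libraries of this counting run alone, edgeR's adjusted p was 0.0223 for Mitf (log2 fold change 0.43) and 0.0449 for Tyr (log2 fold change -1.43).

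Set against syngeneic skin, mCAN10 skin had a mean Tyrp1 level of 7.38 ± 1.80 CPM and syngeneic skin 2.69 ± 0.787 CPM (SD, n = 4 each). All 4 mCAN10 libraries were above all 4 Syn libraries, which held for 10.8% of all genes. The log2 fold change was 1.46 ± 0.54 (edgeR's adjusted p = 0.238), and with these 2 groups alone in the fit it was 1.42 (adjusted p = 0.0195). Tyr had a log2 fold change of 1.53 ± 1.01 (edgeR's adjusted p = 0.552) and Dct one of 0.73 ± 0.54 (adjusted p = 0.611). None of the 7 was called, against 0.811% of all genes. At an unadjusted p under 0.05 only Tyrp1 passed, against 13.7% of all genes, and DESeq2 called none. The comparisons of Allo with Syn and of mCAN10 with Syn share the Syn libraries, and those of Allo and mCAN10 share the Allo libraries.

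The enzymes were also set against each other within each library, where they share 1 piece of skin. These ratios were chosen after the values were seen and are a description without a test. Tyr over Dct was 0.0193 to 0.0648 in mCAN10 libraries, 0.0832 to 0.179 in Allo libraries and 0.0108 to 0.0300 in Syn libraries. All Allo libraries were above the 8 others of the run. Tyrp1 over Dct was 0.440 to 0.575 in mCAN10 libraries, 0.464 to 0.885 in Allo libraries and 0.262 to 0.373 in Syn libraries, and neither allogeneic group overlapped Syn. Pmel over Dct was 1.09 to 1.54 in mCAN10 libraries, 0.938 to 2.61 in Allo libraries and 2.31 to 2.94 in Syn libraries. The mCAN10 libraries thus lay below the Syn libraries in this ratio, and the Allo libraries spanned both. In the other run, Tyr over Dct was 0.0174 to 0.236 in Nin libraries and 0.0495 to 0.100 in Allo_H libraries.

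**Figure D3:**
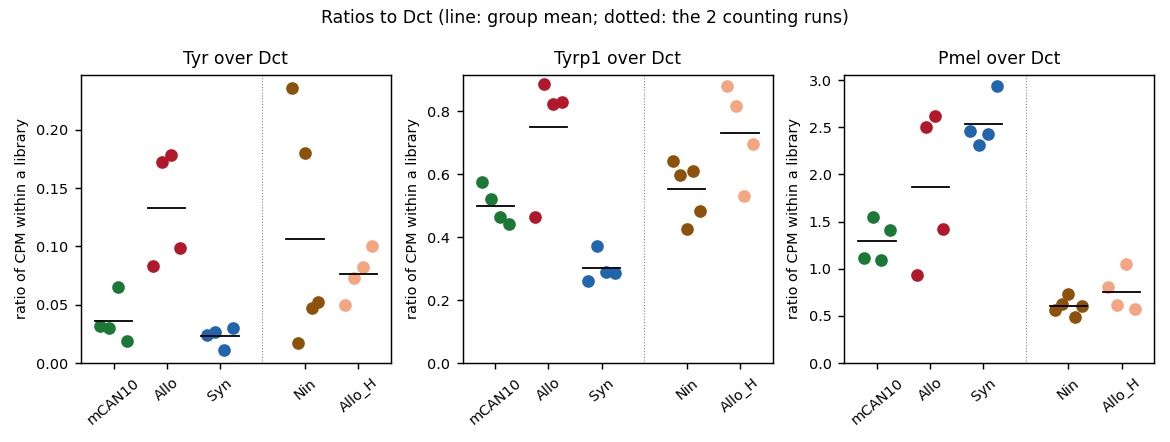
Ratios of Tyr, Tyrp1 and Pmel to Dct within each library, on linear axes; a point is a library, a line the mean of its group, and the dotted line parts the counting runs. Tyr over Dct was 0.0832 to 0.179 in Allo libraries, above all mCAN10 and Syn libraries, and Nin replicates 1 and 3 are the highest Nin points of that panel.

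Nintedanib was compared with water in allogeneic mice. Mitf was 2.27-fold higher in nintedanib skin, and the other 6 tested genes had higher group means that did not pass the test. At edgeR's unadjusted p under 0.05, 5 of the 7 tested genes passed, against 5212 of 20462 genes tested. Replicates 1 and 3, 2 of the 5 nintedanib libraries, were above every water library for all 8 genes. Of the other 3 nintedanib libraries, replicates 2 and 4 lay within the water range for most genes. Replicate 5 lay within it for 3 of the 8 genes. All 3 libraries were above it for Mitf and below it for Oca2.

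Mitf had 70.3, 23.01, 27.3, 20.8 and 26.4 CPM in Nin libraries, against 15.5, 17.2, 17.7 and 8.61 CPM in Allo_H libraries. All 5 Nin libraries were above all 4 water libraries, and replicate 1 stood far above the other 4. The log2 fold change was 1.18 ± 0.29 (edgeR's adjusted p = 0.0179). Of 7 genes, 1 was called, against 9.31% of all genes tested, 5.56% higher and 3.76% lower, and the groups of 4.75% of all genes did not overlap and were higher. The median log2 fold change was 1.32 over the 7 genes and 0 over all genes. Mast cell marker sums were 52.1 to 259 CPM in Nin and 88.1 to 196 CPM in Allo_H libraries, and macrophage sums 512 to 2852 CPM in Nin and 1833 to 3712 CPM in Allo_H libraries. Nin replicate 1, the highest for Mitf, had the lowest value of both sums. Without Nin replicates 1 and 3 the log2 fold change was 0.63 ± 0.19 (edgeR's adjusted p = 0.0564), and without Allo_H replicate 4 it was 0.99 (adjusted p = 0.0697). With only these groups in the fit the log2 fold change was 1.19 (edgeR's adjusted p = 0.167).

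Tyr had 11.97, 0.159, 8.17, 0.693 and 1.08 CPM in Nin libraries, against 0.305, 1.01, 0.393 and 2.05 CPM in Allo_H libraries. Replicate 2 was below all water libraries, replicates 4 and 5 were within their range, and replicates 1 and 3 were 12.7 and 8.70 times the water mean. Across the 5 Nin libraries the reads ranged from 3 to 215. The log2 fold change was 2.22 ± 0.88 (edgeR's adjusted p = 0.116), and without replicates 1 and 3 it was -0.60 (adjusted p = 0.723).

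Tyrp1 had 32.6, 5.46, 19.3, 9.06 and 9.98 CPM in Nin libraries, against 5.43, 11.2, 2.53 and 14.3 CPM in Allo_H libraries. Dct had 50.7, 9.12, 45.4, 14.8 and 20.7 CPM in Nin libraries, against 6.17, 13.8, 4.77 and 20.5 CPM in Allo_H libraries. In both genes replicates 1 and 3 were the highest of the 9 libraries and replicates 2 and 4 were within the water range, while replicate 5 was within it for Tyrp1 and just above it for Dct. Log2 fold changes were 0.87 ± 0.50 for Tyrp1 (edgeR's adjusted p = 0.301) and 1.32 ± 0.52 for Dct (adjusted p = 0.115).

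Pmel had 28.6, 5.67, 33.5, 7.20 and 12.5 CPM in Nin libraries, against 4.95, 8.49, 4.99 and 11.6 CPM in Allo_H libraries, with a log2 fold change of 1.22 ± 0.43 (edgeR's adjusted p = 0.0792). Mlana had 5.85, 0.636, 8.13, 0.640 and 1.47 CPM in Nin libraries, against 0.305, 0.796, 0.954 and 1.20 CPM in Allo_H libraries, with a log2 fold change of 2.03 ± 0.71 (edgeR's adjusted p = 0.0765). The structural genes thus showed the same libraries on top, with replicate 3 the highest in both. DESeq2 called both (adjusted p = 0.0361 for Pmel and 0.0270 for Mlana). The exact order differed from that of Tyr, Tyrp1, Mitf and Dct, for which replicate 1 was the highest.

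The transporter genes reached countable levels in these libraries. Slc45a2 had 76, 6, 115, 4 and 19 reads in Nin libraries, against 15, 9, 0 and 21 reads in Allo_H libraries, and its log2 fold change was 1.78 ± 0.96 (edgeR's adjusted p = 0.260). Oca2 had 52, 0, 24, 0 and 1 reads in Nin libraries, against 3, 4, 3 and 7 reads in Allo_H libraries. Replicates 1 and 3 were above all water libraries for both genes, and the other 3 Nin libraries were below all of them for Oca2.

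Counted over the 8 genes, replicate 2 was above the water range for 1 gene, below it for 2 and within it for 5. Replicate 4 was above it for 1 gene, below it for 1 and within it for 6, and replicate 5 above it for 4, below it for 1 and within it for 3. The 1 gene above the range in replicates 2 and 4 was Mitf. Without replicates 1 and 3, edgeR called none of the 7 tested genes, against 5.88% of all genes in that fit, a share at which none of 7 is near the background. At an unadjusted p under 0.05, 1 of the 7 (Mitf) passed, against 21.7% of all genes.

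**Figure D4:**
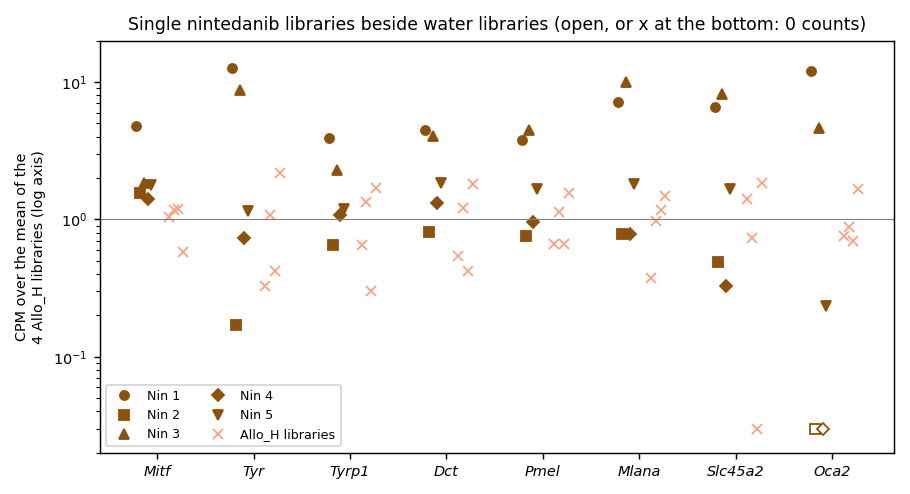
Each nintedanib library's CPM over the mean of the 4 water libraries, on a log axis, with the water libraries as crosses; open points and the lowest cross stand for 0 counts. Replicates 1 and 3 lie above all crosses for all 8 genes, and all 5 Nin points lie above the crosses for Mitf alone.

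The hair follicle, the main home of melanocytes in mouse skin, makes pigment while the hair grows. The libraries with the high pigment genes were those with the high sums of growing follicle genes. The 7 pigment genes other than Mitf summed to 137, 21.4, 121, 32.6 and 46.8 CPM in Nin libraries, against 18.3, 36.0, 13.8 and 51.2 CPM in Allo_H libraries. Allo_H replicate 3 had the highest follicle sum of the water libraries, 442 CPM, and the lowest pigment sum. In the other run, Allo replicate 1 had a follicle sum of 693 CPM and a pigment sum of 61.2 CPM, while Allo replicate 4 had a follicle sum of 56.2 CPM and a pigment sum of 63.3 CPM. With the mean log2 level of the follicle genes as a covariate, the log2 fold change of Nin over Allo_H was 0.78 for Mitf (edgeR's adjusted p = 0.0456). It was 0.49 for Dct, 0.41 for Pmel and 0.56 for Mlana (edgeR's adjusted p = 0.560, 0.505 and 0.558), and 0.11 for Tyrp1, 0.05 for Slc45a2 and -0.08 for Tyr (adjusted p = 1 each).

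**Figure D5:**
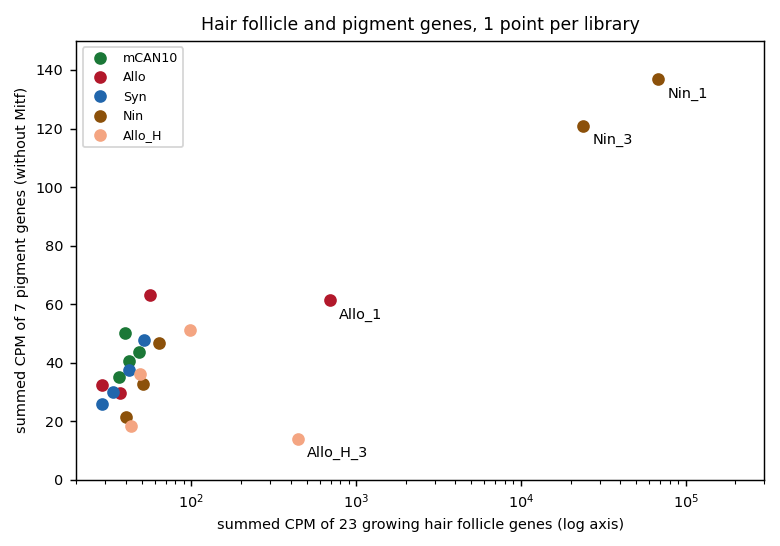
Summed CPM of 7 pigment genes without Mitf against summed CPM of 23 genes of the growing hair follicle (log axis), with 1 point per library. Nin replicates 1 and 3 stand apart at 137 and 121 CPM of pigment genes, and the other libraries of their run lie between 13.8 and 51.2 CPM. Libraries of the other counting run, at 25.7 to 63.3 CPM, share the axes and are not compared with them.

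Genes that specify melanocytes or receive their signals were listed apart from the pigment genes. Of 9, none rose and 2 fell in Allo over Syn, where 22.6% of all genes were called and 8.8% were lower. These were Ednrb, the endothelin receptor of melanocyte precursors, by a log2 fold change of -1.84 ± 0.56 (edgeR's adjusted p = 0.0247), and the transcription factor Tfap2b by one of -1.71 ± 0.45 (adjusted p = 0.00987). A count of 2 among 9 is close to the share called over all genes. Tfap2b averaged 43.6 ± 9.52 CPM in mCAN10, 13.4 ± 13.2 CPM in Allo and 44.0 ± 8.77 CPM in Syn skin (SD, n = 4 each). It was the 1 gene of the 9 called in mCAN10 over Allo, 1.70 ± 0.45 (edgeR's adjusted p = 0.0186), against 10.8% of all genes. It was also the 1 gene of the list called in Nin over Allo_H, against 9.31% of all genes, and 1 of 9 is near both shares. In that comparison Tfap2b averaged 71.4 ± 27.2 CPM in Nin (n = 5) and 16.5 ± 3.47 CPM in Allo_H skin (SD, n = 4). Without Nin replicates 1 and 3 this log2 fold change was 1.66 (edgeR's adjusted p = 0.0412), against 2.11 with them. In mCAN10 over Syn edgeR called no gene of the list, against 0.811% of all genes, and DESeq2 called none. At an unadjusted p under 0.05 in edgeR 1 of the 9 passed, against 13.7% of all genes.

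Sox10, a transcription factor that melanocytes share with Schwann cells, had 38.1 ± 3.98 CPM in mCAN10, 19.5 ± 1.92 CPM in Allo and 26.6 ± 8.67 CPM in Syn skin (SD, n = 4 each). The log2 fold change of mCAN10 over Allo was 0.97 ± 0.36 (edgeR's adjusted p = 0.0994). The groups did not overlap, and 12.2% of all genes likewise did not overlap and were higher. Beside it, 5 of 11 Schwann cell genes rose in mCAN10 over Allo, where 5.58% of all genes rose, and 5 of 11 fell in Allo over Syn, where 8.8% of all genes fell. The Schwann cell sum was 919 to 1321 CPM in mCAN10, 374 to 451 CPM in Allo and 698 to 1599 CPM in Syn libraries. In Nin libraries Sox10 had 3.67, 19.0, 12.1, 24.3 and 22.9 CPM, against 27.5, 21.7, 26.0 and 36.0 CPM in Allo_H libraries, so that it was lowest in replicates 1 and 3. Kit, the receptor tyrosine kinase that melanocytes share with mast cells, had 8.79 ± 0.643 CPM in mCAN10, 5.65 ± 2.70 CPM in Allo and 8.76 ± 4.25 CPM in Syn skin (SD, n = 4 each) and passed the test in no comparison.

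Mc1r, the melanocortin receptor, followed the pigment genes among single nintedanib libraries, with 2.34, 0.106, 4.53, 0.586 and 1.02 CPM in Nin libraries, against 0.427, 0.689, 0.224 and 1.25 CPM in Allo_H libraries. Replicates 1 and 3 were again the highest, and replicate 2 was the lowest. Its log2 fold change was 1.40 ± 0.73 (edgeR's adjusted p = 0.241).

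Other proteins of melanosomes and their transport gave 15 tested genes of 16. In Allo over Syn 4 of the 15 rose and none fell, where 13.8% of all genes rose and 8.8% fell. The 4 were Slc7a11, a cystine transporter (2.98 ± 0.82), Tpcn2, an ion channel of lysosomes and melanosomes (1.13 ± 0.21), Rab38, a GTPase that sorts Tyr and Tyrp1 to melanosomes (1.12 ± 0.23), and Mreg (0.69 ± 0.19), with edgeR's adjusted p up to 0.0132. The median log2 fold change was 0.78. Cells other than melanocytes also use several of these genes, and keratinocyte genes summed to 48465 to 83028 CPM in Allo and 18604 to 31361 CPM in Syn libraries. In mCAN10 over Allo, Rab38 fell by 0.97 on the log2 scale (SE 0.22, edgeR's adjusted p = 0.00951), with 21.2 ± 6.35 CPM in mCAN10 and 41.5 ± 9.33 CPM in Allo skin (SD, n = 4 each). Rab38 was the 1 gene of the 15 called there, against 10.8% of all genes called and 5.19% called lower. In mCAN10 over Syn edgeR called none of the 15, against 0.811% of all genes, and DESeq2 called none. At an unadjusted p under 0.05 in edgeR 2 of the 15 passed, against 13.7% of all genes. Both counts are near the share over all genes.

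In Nin over Allo_H, Trpm1, a cation channel of melanocytes, rose with a log2 fold change of 1.85 ± 0.56 (edgeR's adjusted p = 0.0445) and Tpcn2 fell by 0.64 on the log2 scale (SE 0.20, adjusted p = 0.0480), so that 2 of 15 were called, against 9.31% of all genes. Without Nin replicates 1 and 3, Tpcn2 lost its call (-0.78, edgeR's adjusted p = 0.0611), and Slc7a11 was the 1 gene of the list called, lower (-2.23, adjusted p = 0.0228). This 1 of 15 is near the 5.88% of all genes called in that fit. Trpm1 had 13.7, 0.901, 6.97, 3.04 and 3.34 CPM in Nin libraries, against 1.10, 2.17, 1.12 and 1.77 CPM in Allo_H libraries. Again replicates 1 and 3 were on top, and without them its log2 fold change was 0.61 (edgeR's adjusted p = 0.510). Gpr143, a receptor of the melanosome membrane, was too low to test, with 22, 0, 16, 0 and 1 reads in Nin libraries, against 0, 2, 0 and 2 reads in Allo_H libraries.

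The machinery that builds lysosome-related organelles, whose loss causes the Hermansky-Pudlak and Chediak-Higashi pigment disorders, gave 19 tested genes. In Allo over Syn, 2 rose (Lyst, 0.81 ± 0.16, and Ap3b1, 0.34 ± 0.11) and 2 fell (Bloc1s1, -0.53 ± 0.16, and Hps4, -0.43 ± 0.13), with edgeR's adjusted p up to 0.0323. These 4 of 19 are near the 22.6% of all genes called. In mCAN10 over Allo, Hps4 rose (0.57 ± 0.13, edgeR's adjusted p = 0.00913). Hps4 was the 1 gene of the 19 called there, against 10.8% of all genes called and 5.58% called higher. In Nin over Allo_H, Bloc1s5 (0.51 ± 0.13) and Ap3m1 (0.33 ± 0.10) rose, with edgeR's adjusted p up to 0.0391, and 2 of 19 are near the 9.31% of all genes called. Without Nin replicates 1 and 3, Ap3m1 lost its call (0.22, edgeR's adjusted p = 0.192) and Bloc1s5 was called (0.53, adjusted p = 0.0337). Bloc1s5 was the 1 gene of the 19 called in that fit, near the 5.88% of all genes. The medians of this list lay between -0.02 and 0.10 on the log2 scale in all 4 comparisons.

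Signals that act on melanocytes gave 8 tested genes of 10. EdgeR called none in Allo over Syn, mCAN10 over Allo or mCAN10 over Syn, against 22.6%, 10.8% and 0.811% of all genes. Its unadjusted p was under 0.05 for 1, 1 and 0 of the 8, against 7186 of 20462, 24.5% and 13.7% of all genes. DESeq2 called 1, 0 and 0 of them, and its shares over all genes are not given here. In Nin over Allo_H 3 of the 8 rose, where 5.56% of all genes rose. They were the endothelin Edn3, the protease Corin, known from mice to act on coat colour, and Atrn, a receptor of the agouti pathway. Edn3 had 17.9, 1.48, 21.2, 1.23 and 2.66 CPM in Nin libraries, against 0.305, 0.371, 0.168 and 1.20 CPM in Allo_H libraries. For Edn3 all 5 Nin libraries were above all 4 water libraries, which held for 4.75% of all genes. Its log2 fold change was 4.11 ± 0.89 (edgeR's adjusted p = 0.00923), and 1.75 without replicates 1 and 3 (adjusted p = 0.100). Corin had 17.8, 1.27, 16.2, 1.33 and 0.567 CPM in Nin libraries, against 0.549, 0.371, 0.281 and 1.88 CPM in Allo_H libraries. Without replicates 1 and 3 the log2 fold changes were 0.41 for Corin (edgeR's adjusted p = 0.809) and 0.28 for Atrn (adjusted p = 0.0975). Of this list edgeR then called none, against 5.88% of all genes, and 2 had an unadjusted p under 0.05, against 21.7% of all genes. Kitl, the ligand of Kit, had a log2 fold change of 0.48 ± 0.26 (edgeR's adjusted p = 0.256). Pomc was too low to test, and Asip was not analysed here.

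In Edn3 the first run had another order, with 2.74 ± 0.519 CPM in mCAN10, 0.836 ± 0.645 CPM in Allo and 2.46 ± 0.432 CPM in Syn skin (SD, n = 4 each). Allo libraries overlapped neither of the other groups. In mCAN10 over Allo 12.2% of all genes did not overlap and were higher, and the share lower in Allo over Syn is not given here. The log2 fold changes were 1.72 ± 0.83 for mCAN10 over Allo (edgeR's adjusted p = 0.207) and -1.57 ± 0.83 for Allo over Syn (adjusted p = 0.187).

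With the group means taken out, the pigment genes moved together to unequal degrees. Pearson's r between each of the 7 tested genes and the mean of the other pigment genes ran from 0.21 (Slc45a2) to 0.82 (Dct) over the 12 libraries of the first run, with 0.29 for Mitf. Over the 9 libraries of the second run it was 0.82 to 0.99 for the genes other than Mitf and 0.37 for Mitf, in a run where Nin replicates 1 and 3 stand apart. Mitf was the least alike of the 7 in the second run. The genes outside the list most like the pigment mean in the first run were Gm28308 and Zdhhc16 (r = 0.92 each), followed by Gng13, Afdn, Kdm5a, Sox7, Bzw1, Gm9616, Myo1d and Gpr153, down to r = 0.86, among 17154 genes. In the second run they were Esrp2, Prep, Sppl3, Aqr, Nrf1, Traf7, Spint1, Trim41, Tpgs2 and St14, whose r over the 7 libraries without Nin replicates 1 and 3 was 0.93 to 0.98, among 15081 genes. The points share their libraries and depth, and these values are descriptions without a test.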

How the data were processed

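RNA sequencing libraries were made from poly-A RNA (1 μg) with an unstranded kit, per the labels' protocols. The deposited values are raw counts per gene symbol, which the authors made with FastQC, Trimmomatic, STAR and featureCounts on GRCm39, per the submitters' processing notes; the sources used here give neither versions nor the annotation. Of 64050 symbols, 21830 had counts in both runs, 12094 in the first run only and 6185 in the second run only.

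The analysis used R 4.3.3 with edgeR 4.0.16: filterByExpr at a minimum count of 10 (20462 genes kept), TMM factors, 1 quasi-likelihood fit (glmQLFit, glmQLFTest) of all 21 libraries with a mean per group, and Benjamini-Hochberg adjustment over all genes tested, with calls at an adjusted p under 0.05. The spread is thus shared by all groups. Log2 fold changes have their SE. Log2 CPM for likeness used a prior count of 2. Exon lengths and overlaps came from GENCODE M21 and promoters from RefSeq, both GRCm38. Python 3.11.15 and matplotlib 3.10.9 drew the figures. The fit was tested on simulated data.

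The members and gene lists were chosen with earlier results of these data known. Named were all members, genes called in each list, some of those with the lowest p, and the 10 genes most like the pigment mean in each run (mean CPM of at least 1). Alternatives were DESeq2 1.42.0, RLE size factors, no filter, symbols of both runs, 1 run or 2 groups only, a replicate block, hair or muscle covariates, and libraries left out.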

Additional observations from a re-analysis of the deposited data

Results flagged for a closer look

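Of 39 sets of libraries, each 1 member in 1 group, 2 had a library far from the others, by the gap to the nearest library over the range of the set. That is 5.13%, beside the 1 in 20 that chance gives. The rule cannot flag 2 high libraries that lie near each other, so this share does not cover Nin replicates 1 and 3 together. For Dct and Tyr, where these were the highest Nin libraries, the top gap was 0.127 and 0.321 of the range (limit 0.710). Mlana had 1.34 CPM in Syn replicate 3, where the next Syn library had 0.390 CPM, a gap of 0.953 of the range (limit 0.829 for 4 libraries). Mitf had 70.3 CPM in Nin replicate 1, where the next Nin library had 27.3 CPM, a gap of 0.870 of the range (limit 0.710 for 5 libraries). Without Nin replicate 1 the log2 fold change of Mitf in Nin over Allo_H was 0.69 (edgeR's adjusted p = 0.0272), and without Syn replicate 3 that of Mlana in Allo over Syn was 1.30 (adjusted p = 0.278).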

How the results depend on the processing

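No called member changed sign. The count of genes called in Allo over Syn (4621) stayed within 1.5 times of itself in all alternatives. In mCAN10 over Allo (2204 called) it was 3664 with the libraries of 1 run and 1284 to 2168 with single libraries left out. In mCAN10 over Syn (166 called) it was 106 with symbols of both runs, 363 with the hair follicle covariate, 107 with the muscle covariate, 505 with 1 run, 2131 with 2 groups, 682 with DESeq2 and 31 to 152 with single libraries left out. In Nin over Allo_H (1906 called) it was 1190 with no filter, 94 with 1 run (which holds only these 2 groups), 3040 with DESeq2 and 782 to 2794 with single libraries left out. With pairs of Nin libraries left out it was 890 (1 and 2), 1225 (1 and 3), 971 (2 and 3), 3197 (2 and 4), 3392 (2 and 5) and 4254 (4 and 5).

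The replicate block gave 98 genes in mCAN10 over Syn. Under it Tyr and Tyrp1 in Allo over Syn had edgeR's adjusted p of 0.0593 and 0.0521. Same-numbered samples correlated at -0.23 to 0.35. Samples with different numbers were not correlated, so this range does not settle whether the numbers pair samples. The mCAN10 numbers are those of the sample titles, and some of the count columns bear other numbers.

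Over the 17 alternatives the Allo over Syn call was lost in 10 for Tyr (log2 fold change 2.33 to 3.13) and in 5 for Tyrp1 (1.40 to 1.98). Mitf in Nin over Allo_H lost its call in 4 of 28 (0.63 to 1.48). In that comparison the fits of 1 run and of 2 groups are the same fit, counted under both names in the 4 and the 28. Tyr, Dct, Pmel and Mlana in Nin over Allo_H passed when Nin replicates 2, 4 or 5 were left out in some combinations, which also called more of all genes. In the fit of 1 run Mitf was called lower in Allo over Syn (-0.34, adjusted p = 0.0375). The cause of these changes was not tested. Depth limits Tyr in Syn libraries, Slc45a2 and Oca2. CPM from plain totals moved all 40 single-library Nin values by less than their SD.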

Other observations

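Some levels differed between the counting runs, which were not compared. Slc24a5, an ion exchanger of melanosomes, had 3.63 to 7.89 CPM over the 12 mCAN10, Allo and Syn libraries and 0 to 1.11 CPM over the 9 Nin and Allo_H libraries. Pmel over Dct was 0.938 to 2.94 in the first of these sets and 0.486 to 1.05 in the second. Symbol sets, treatment vehicles and libraries part the same samples, and their effects cannot be told apart.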
